A study of Mus musculus with 42 samples.

Results

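The 10 genes described here are expressed in Sertoli cells of the mouse testis: Sox9, Wt1, Gata4, Amh, Inha, Fshr, Cldn11, Dhh, Clu and Aard. They were taken by name, through Entrez gene IDs, from a table of 27179 genes and 12 RNA-seq libraries, and all 10 were found and passed the filter on low counts in every comparison. The libraries were made from spermatogonia enriched from testes of C57BL/6J males at 10 days postpartum, 3 libraries each for Thy1+ and c-Kit+ cells of 2 genotypes. Control mice were Ddx4-Cre/Chd8+/F and mutant mice were Ddx4-Cre/Chd8F/-, so both genotypes carry the Cre transgene and 1 floxed allele of the chromatin remodeler gene Chd8. Ddx4-Cre is active in germ cells, so it does not target Chd8 in Sertoli cells, and by the breeding scheme the null allele of the mutants is also carried by their somatic cells. According to the study's methods, filtration and plating were used to remove Sertoli cells, c-Kit+ cells were then captured with magnetic beads, and Thy1+ cells were captured from what was left. The labels number the libraries 1 to 3 in each group, and the methods name 3 male pups per analysis, with 3 per genotype for RNA-seq, without saying that each library held the cells of 1 pup.

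Sertoli cells are the somatic cells of the seminiferous tubule that surround and nurture the germ cells. SOX9, with WT1 and GATA4, drives their differentiation in the fetal gonad and maintains it later. Before puberty they still secrete anti-Müllerian hormone. Sertoli cells also respond to follicle-stimulating hormone through its receptor and signal to interstitial cells through desert hedgehog. Their tight junctions form the blood-testis barrier of the adult testis.

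Total counts ranged from 32266861 to 45396233 per library, and the 10 genes together took between 0.0605% and 0.339% of them. The 6 markers of germ cells (Ddx4, Dazl, Mael, Tdrd9, Sall4 and Uchl1) were present in every library, with summed levels of 634 to 1501 RPKM (the reads-per-kilobase scale, counts divided by the length of the counted exons and by the TMM-scaled library size). The gene-level count of Chd8 was not lower in the mutants, with 33.5 ± 2.53 RPKM against 32.9 ± 1.15 RPKM in Thy1+ cells and 37.3 ± 1.16 RPKM against 34.3 ± 2.68 RPKM in c-Kit+ cells (mean ± SD, n = 3 each). Such a count sums all exons, inside and outside a floxed segment, and does not check the deletion. The study reports, by immunoblot, efficient loss of the CHD8 protein from spermatogonia of adult mutants. By chromatin immunoprecipitation it barely found CHD8 binding peaks in mutant spermatogonia. Replicate 1 of the Thy1+ controls and replicate 1 of the Thy1+ mutants stood apart from the other libraries of their groups in the Sertoli cell genes. The levels of the 10 members are therefore given by library, and the members' results that rest on these 2 libraries are also given without them. The genotype results of the other Sertoli cell genes in Thy1+ cells are not given without them. In such bulk libraries, more Sertoli cells and more RNA of these genes per cell cannot be told apart.

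The 3 transcription factor genes were higher in every c-Kit+ mutant library than in every c-Kit+ control library. Sox9, which encodes the factor that specifies Sertoli cells (gene ID 20682, mm10 chr11:112782210-112787757, plus strand), had 10.5, 4.37 and 7.45 RPKM in c-Kit+ control replicates 1, 2 and 3 and 19.5, 21.3 and 18.4 RPKM in the c-Kit+ mutants. On the log2 scale Sox9 rose by 1.35 (SE 0.24, FDR = 0.00164). Here and below FDRs are from quasi-likelihood F tests in edgeR, adjusted by the Benjamini-Hochberg procedure over all genes tested, and a gene was called when the FDR was under 0.05 and the log2 fold change beyond 0.5. In Thy1+ cells Sox9 had 18.9, 4.66 and 4.85 RPKM in the controls and 25.1, 9.04 and 11.5 RPKM in the mutants. The Thy1+ groups overlapped because control replicate 1 lay above mutant replicates 2 and 3, while each mutant lay above the control of its own number.

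Wt1, a zinc finger factor required for Sertoli cell identity (gene ID 22431, chr2:105126529-105173614, plus strand), had 22.7, 11.6 and 16.2 RPKM in the c-Kit+ controls and 33.6, 38.4 and 37.1 RPKM in the c-Kit+ mutants. Wt1 rose by 1.05 on the log2 scale (SE 0.19, FDR = 0.00179). In Thy1+ cells it had 30.9, 9.81 and 8.32 RPKM in the controls and 38.9, 14.7 and 13.5 RPKM in the mutants, with the same overlap as for Sox9. Gata4, a zinc finger factor that Leydig and other somatic cells of the gonad also use (gene ID 14463, chr14:63198915-63245260, minus strand), had 29.7, 18.1 and 22.8 RPKM in the c-Kit+ controls and 53.2, 49.6 and 50.9 RPKM in the c-Kit+ mutants. Its log2 fold change was 1.06 with the smallest error of the 10 genes (SE 0.14, FDR = 0.000469). In Thy1+ cells Gata4 had 43.9, 23.5 and 32.3 RPKM in the controls and 63.8, 35.2 and 48.5 RPKM in the mutants. The spread among Thy1+ replicates was smaller for Gata4 than for the other genes, at 1.87-fold between the highest and the lowest control.

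The genes of hormones and of the hormone receptor followed. Amh, which encodes anti-Müllerian hormone (gene ID 11705, chr10:80805248-80807648, plus strand), had 42.4, 10.6 and 22.0 RPKM in the c-Kit+ controls and 77.9, 82.0 and 78.1 RPKM in the c-Kit+ mutants. This was the highest fold change of the 10, at 1.61 on the log2 scale (SE 0.36, FDR = 0.00558). In Thy1+ cells Amh had 55.3, 12.2 and 11.3 RPKM in the controls and 93.7, 34.7 and 29.0 RPKM in the mutants, so that control replicate 1 again exceeded 2 of the mutants. Inha, which encodes the alpha subunit of inhibin, the feedback hormone that lowers FSH secretion (gene ID 16322, chr1:75507077-75510354, plus strand), had 107, 44.2 and 75.6 RPKM in the c-Kit+ controls and 179.6, 173 and 205 RPKM in the c-Kit+ mutants. The log2 fold change of Inha was 1.24 (SE 0.24, FDR = 0.00263). In Thy1+ cells it had 146, 35.7 and 40.4 RPKM in the controls and 199, 65.6 and 84.4 RPKM in the mutants.

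Fshr, which encodes the receptor for follicle-stimulating hormone (gene ID 14309, chr17:88984952-89200675, minus strand), was the least abundant of the 10. It had 2.34, 0.897 and 2.22 RPKM in the c-Kit+ controls and 3.08, 3.90 and 4.72 RPKM in the c-Kit+ mutants, a rise of 1.04 on the log2 scale (SE 0.31, FDR = 0.0222). Of the 10 genes it came closest to the threshold, and without c-Kit+ mutant replicate 2 or 3 its FDR was 0.0566 or 0.0882. In Thy1+ cells Fshr had 4.48, 0.632 and 0.482 RPKM in the controls and 4.30, 0.843 and 1.61 RPKM in the mutants. It was the only member for which 1 mutant library, Thy1+ replicate 1, lay below the control of the same number.

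Cldn11, which encodes the claudin of Sertoli cell tight junctions (gene ID 18417, chr3:31149920-31164326, plus strand), had 58.2, 22.4 and 44.0 RPKM in the c-Kit+ controls and 86.5, 92.7 and 103 RPKM in the c-Kit+ mutants. The log2 fold change of Cldn11 was 1.12 (SE 0.26, FDR = 0.00654). In Thy1+ cells it had 98.6, 16.9 and 20.7 RPKM in the controls and 117, 35.8 and 31.4 RPKM in the mutants. Dhh, which encodes the hedgehog ligand that Sertoli cells send to Leydig and peritubular cells (gene ID 13363, chr15:98893027-98898540, minus strand), had 18.1, 5.76 and 13.7 RPKM in the c-Kit+ controls and 30.3, 31.0 and 39.0 RPKM in the c-Kit+ mutants. The log2 fold change of Dhh was 1.36 (SE 0.31, FDR = 0.00618). In Thy1+ cells Dhh had 26.6, 4.62 and 5.12 RPKM in the controls and 36.4, 11.5 and 14.3 RPKM in the mutants.

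Since the members moved together across libraries, the sequence before the transcription start was read for those found in RefSeq promoter windows of GRCm38.p6 (the mm10 assembly), namely Cldn11, Fshr, Dhh and Inha, 4 of the 10, with Sox9, Wt1, Gata4, Amh, Clu and Aard not found. The 250 bases before the start are shown for Cldn11 and Fshr, where no RefSeq transcript of the gene covers them. They differ in base composition, with 63.6% and 36.8% G or C. The Cldn11 stretch lies at chr3:31149670-31149919 on the plus strand and the Fshr stretch at chr17:89200676-89200925 on the minus strand, both 5′ to 3′, with capitals for an E-box.
Cldn11: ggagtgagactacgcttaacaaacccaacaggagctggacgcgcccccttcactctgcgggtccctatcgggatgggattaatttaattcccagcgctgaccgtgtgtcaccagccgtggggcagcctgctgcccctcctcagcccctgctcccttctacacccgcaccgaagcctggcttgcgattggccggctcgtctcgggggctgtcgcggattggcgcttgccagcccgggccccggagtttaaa
Fshr: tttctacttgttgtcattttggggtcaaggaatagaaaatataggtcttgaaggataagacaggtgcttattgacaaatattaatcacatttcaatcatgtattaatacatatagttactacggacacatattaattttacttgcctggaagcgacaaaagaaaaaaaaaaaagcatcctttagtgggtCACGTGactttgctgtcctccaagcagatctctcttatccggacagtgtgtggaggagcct
In the 4 windows of 300 bases (250 before to 50 after the start), both strands were searched for AGATAA, bound by GATA factors, AACAAT, bound by SOX factors, and AAGGTCA, bound by NR5A1. None of the 4 windows held any of these, whereas 11.2%, 10.7% and 4.72% of all 32851 windows in the table held the GATA, the SOX and the NR5A1 letters. The absence says only that these letters were not found in these windows. The Fshr window held CACGTG, the E-box known to bind USF factors, beginning 61 bases before the start, and 7.15% of all windows held it. This motif was searched for after the sequence had been seen.

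The most abundant members per length were Clu, which encodes the secreted chaperone clusterin, and Aard, which encodes a protein with an alanine- and arginine-rich domain. Clu (gene ID 12759, chr14:65968483-65981545, plus strand) had 512, 191 and 347 RPKM in the c-Kit+ controls and 793, 772 and 878 RPKM in the c-Kit+ mutants. The log2 fold change of Clu was 1.16 (SE 0.26, FDR = 0.00607). In Thy1+ cells it had 704, 138 and 151 RPKM in the controls and 904, 287 and 300.5 RPKM in the mutants, a 5.11-fold range among the controls. Aard (gene ID 239435, chr15:52040107-52045722, plus strand) had 254, 91.3 and 173 RPKM in the c-Kit+ controls and 388, 399 and 421 RPKM in the c-Kit+ mutants. The log2 fold change of Aard was 1.16 (SE 0.27, FDR = 0.00689). In Thy1+ cells Aard had 365, 80.2 and 88.9 RPKM in the controls and 519, 155 and 164 RPKM in the mutants.

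**Figure D1:**
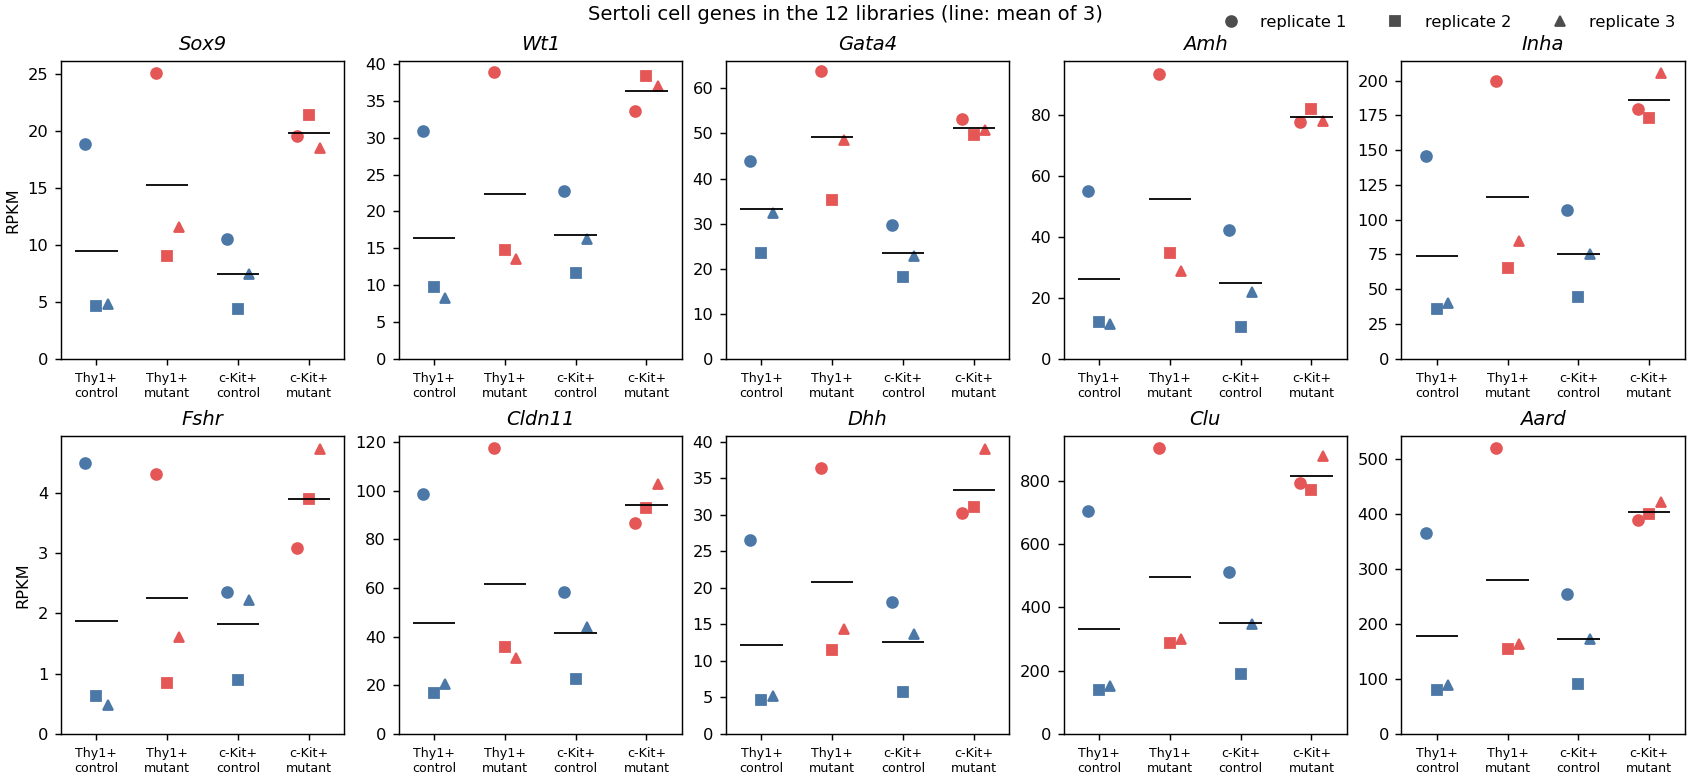
Level of each of the 10 Sertoli cell genes in RPKM (vertical axis, from 0) in the 12 libraries, by group (horizontal axis, 3 libraries each, the shape giving the replicate number and the line the mean). The 3 c-Kit+ mutants lie close together and above the c-Kit+ controls, and replicate 1 lies far above replicates 2 and 3 in both Thy1+ groups for most genes.

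In c-Kit+ cells, where the comparison asks what the mutant genotype changed in the enriched spermatogonia, 10 of 10 members were called higher in the mutants. The background was 2542 of 17134 genes, or 14.8%, called higher, and the members' median log2 fold change was 1.16 against 0.011 over all genes tested. For 10 of 10 members every mutant library lay above every control library, which held for 30.7% of 18002 genes, and each mutant lay above the control of its number in 3 of 3 pairs, which held for 38.9%. The excess over the control of the same number had a median over the 10 genes of 1.61-fold in pair 1, 4.24-fold in pair 2 and 2.45-fold in pair 3. Between the highest and the lowest library of a group the 10 genes spanned 1.64-fold to 3.997-fold in the c-Kit+ controls and 1.05-fold to 1.53-fold in the c-Kit+ mutants. With all 12 libraries in 1 fit, so that the Thy1+ spread entered the error, 1 of the 10 (Gata4) was called, at log2 fold changes of 1.10 to 1.67. That fit called 2374 of 18002 genes higher, so the members' count did not stand out from the background there.

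In Thy1+ cells 0 of 10 members were called, and the background was 0 of 17416 genes (0%) by edgeR's quasi-likelihood test. At an unadjusted p under 0.05 that test had 0 members and 2151 genes, while edgeR's exact test called 29 genes higher and DESeq2 called 52, in each case with 0 members among them. The members' log2 fold changes were nevertheless positive for 10 of 10, from 0.27 (SE 0.88, FDR = 0.907) for Fshr to 1.00 (SE 0.67, FDR = 0.539) for Amh. Libraries with the same number deviated together in this comparison, and with the replicate number as a block 9 of 10 members were called higher, against 558 genes or 3.2% of those tested. The labels do not state this pairing, which was inferred from these same counts. The blocked log2 fold changes of these 9 ran from 0.53 (SE 0.08, FDR = 8.19e-05) for Wt1 to 1.19 (SE 0.10, FDR = 1.92e-06) for Amh, and Fshr had 0.59 (SE 0.27, FDR = 0.108). For 0 of 10 members did every Thy1+ mutant lie above every Thy1+ control (6.45% of all genes). For 9 of 10 members the mutant lay above the control of its number in 3 of 3 pairs, which held for 30.1% of all genes. The exception was Fshr, in pair 1. There were only 3 such pairs and the members moved together, so the members are not separate observations. The median excess was 1.35-fold in pair 1, 1.94-fold in pair 2 and 2.04-fold in pair 3.

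Without the replicate 1 libraries of both genotypes, an alternative chosen after the data had been seen, the Thy1+ median over the members was 1.01 and 0 were called, with 2 libraries a group. The 9 members other than Fshr then had FDRs of 0.0581 to 0.437. The same alternative left 10 of 10 called in c-Kit+ cells, beside 2318 of 17252 genes called higher, with a median over the members of 1.55. Leaving out Thy1+ mutant replicate 1 alone turned the sign for Wt1, Clu, Cldn11, Fshr and Aard, and that of Fshr also turned without Thy1+ control replicate 2 or 3. Without Thy1+ control replicate 1 the median over the members was 1.72, with 10 of 10 at an unadjusted p under 0.05 and 0 called by the quasi-likelihood test. In that fit 2929 of 17740 genes had an unadjusted p under 0.05, and 0 were called higher and 10 lower.

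**Figure D2:**
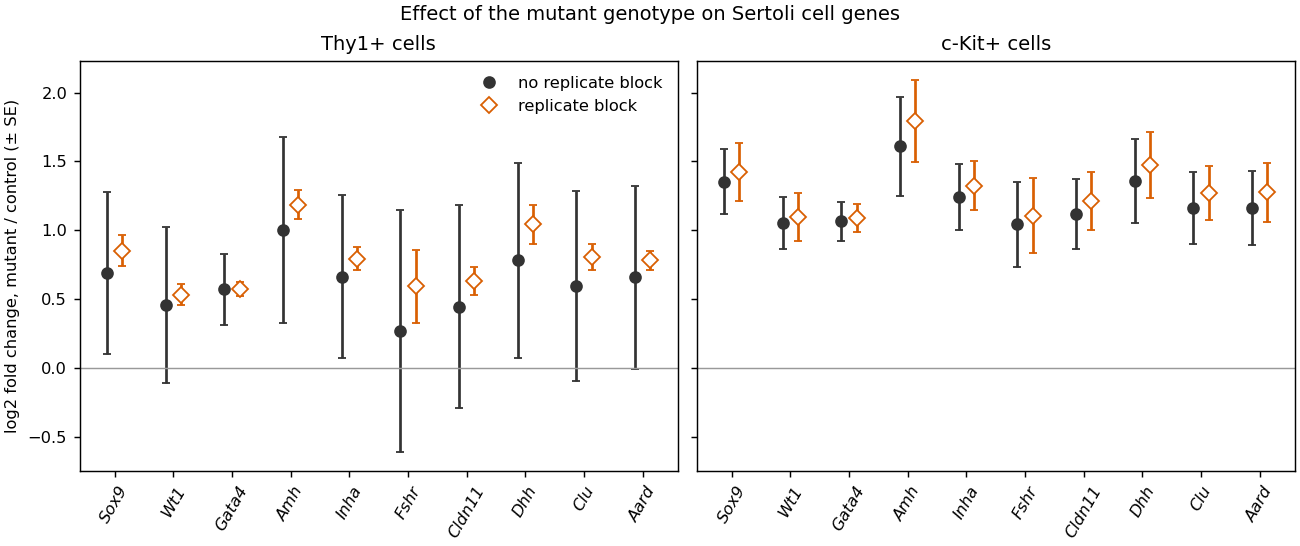
Log2 fold change of the 10 genes in mutants over controls (vertical axis, bars ± SE) in Thy1+ cells (left) and c-Kit+ cells (right), without the replicate block (filled circles) and with it (open diamonds). The estimates run over both fits from 0.27 to 1.19 in Thy1+ cells and from 1.04 to 1.80 in c-Kit+ cells, while the errors in Thy1+ cells are far smaller with the block.

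Whether the mutant effect on these genes differed between the populations was tested as an interaction. None of the 10 members passed, as for 0 of 18002 genes (0%) by edgeR's quasi-likelihood test at an FDR under 0.05 with no minimum on the fold change, where 1804 genes and 0 members had an unadjusted p under 0.05, and DESeq2 called 64 genes and 0 members. The difference of the effects, Thy1+ minus c-Kit+, was negative for 10 of 10 members, from −0.85 (SE 1.05, FDR = 0.839) for Fshr to −0.56 (SE 0.34, FDR = 0.613) for Gata4. Without Thy1+ control replicate 1 the difference was positive for 9 of 10, with Gata4 at −0.31. The effect was therefore not shown to differ between the populations.

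Between the populations the members' order depended on the library. In the controls 0 of 10 members were called in either direction, while 20.7% of the 17350 genes tested were called higher in Thy1+ cells and 7.08% lower. The log2 fold changes (Thy1+ over c-Kit+) lay between −0.04 (SE 0.62, FDR = 0.963) for Clu and 0.53 (SE 0.24, FDR = 0.119) for Gata4. Replicate 1 was higher in Thy1+ cells for 10 of 10 genes, by a median of 1.45-fold, and replicate 3 was lower for 9 of 10, at a median ratio of 0.512. With the replicate block Gata4 was called higher in Thy1+ controls (0.51, SE 0.08, FDR = 0.000936), against 21.8% of genes called higher in that fit, and the other 9 were not called. Without Thy1+ control replicate 1, 7 of 10 members were called lower in Thy1+ controls (5.51% of all genes in that fit), and without replicate 1 of both populations 6 were (5.47%). Without Thy1+ control replicate 2, Gata4 alone was called higher, 1 of 10 against 20.6% of all genes.

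In the mutants, 0 of 10 members were called, against 15.3% of 17346 genes higher and 5.03% lower in Thy1+ cells. All 10 log2 fold changes were negative, from −0.76 (SE 0.49, FDR = 0.27) for Fshr to −0.018 (SE 0.18, FDR = 0.948) for Gata4. Thy1+ mutant replicate 1 exceeded c-Kit+ mutant replicate 1 for 10 of 10 genes, by 1.11-fold to 1.40-fold, while replicates 2 and 3 were below their c-Kit+ counterparts for 10 of 10, at median ratios of 0.385 and 0.369. Without Thy1+ mutant replicate 1, 9 of 10 members were called lower in Thy1+ mutants, all but Gata4, against 5.57% of all genes in that fit.

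**Figure D3:**
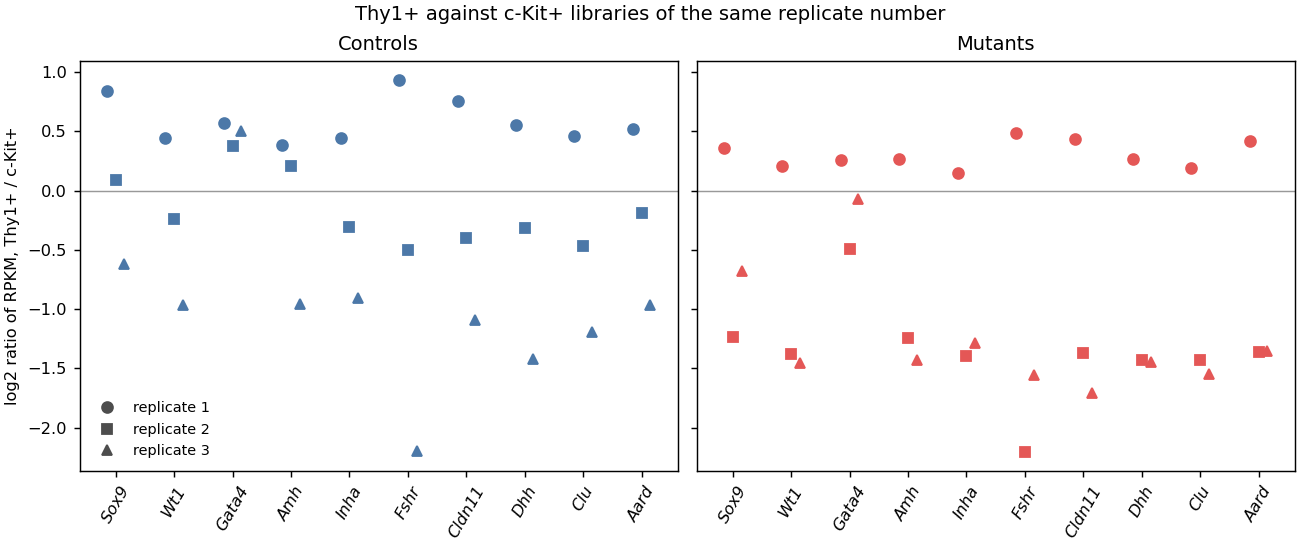
Log2 ratio of RPKM between Thy1+ and c-Kit+ libraries of the same replicate number (vertical axis) for the 10 genes, in controls (left) and mutants (right). Replicate 1 lies above 0 for every gene in both genotypes, and replicates 2 and 3 of the mutants lie below 0 for every gene, with Gata4 closest to 0 in these replicates.

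Within a library the members kept a nearly fixed order per length. Clu, Aard and Inha ranked highest, in this order, in 12 of 12 libraries, and Fshr was last in 12 of 12, while Amh moved between rank 5 and rank 7. Over the 12 libraries the log2 CPM of the 45 pairs of members had Pearson's r between 0.66 and 0.99 (median 0.97). These points share libraries, depth and scaling, so the values only describe how the genes moved together. The 9 pairs with Gata4 were the lowest, at 0.66 to 0.89, and the 36 pairs without it lay between 0.89 and 0.99. After the group means were removed, the pairs without Gata4 still had r between 0.91 and 1.00.

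Relative to the mean of the 10 genes in the same library (log2 RPKM minus that mean), Aard and Inha hardly varied, with ranges of 0.27 and 0.23 over 12 libraries on the log2 scale, although their own levels ranged over 2.69 and 2.53. Gata4 varied most, over 1.66, and its relative level was highest in Thy1+ control replicate 3, at 1.16. Amh was the member whose share differed most between genotypes. Its relative level was −0.36 to −0.12 in the Thy1+ controls and −0.067 to 0.39 in the Thy1+ mutants, and −0.56 to 0.085 in the c-Kit+ controls and 0.11 to 0.28 in the c-Kit+ mutants. The groups did not overlap in either population, with mutant minus control differences of 0.41 and 0.51. Amh was singled out after the values of all 10 had been seen, so no test was made.

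The other Sertoli cell genes moved in the same direction in c-Kit+ cells. Of 36 further genes on a Sertoli cell list, 35 were tested, 27 were called higher in c-Kit+ mutants (14.8% of all genes) and 1 lower, with a median log2 fold change of 0.97. By role, 6 of 8 transcription factor genes, 4 of 4 hormone signalling genes, 5 of 9 junction and cytoskeleton genes, 3 of 4 niche ligands and 9 of 10 secreted or metabolic genes were called higher. The largest increases were those of Hsd17b1, an enzyme of sex steroid synthesis, from 1.97, 0.912 and 1.81 RPKM to 5.94, 6.06 and 6.15 RPKM (log2 fold change 1.89, SE 0.25, FDR = 0.000459), of Sox8, a paralog of Sox9 (1.39, SE 0.24, FDR = 0.00143), and of Gata6, a paralog of Gata4 (1.39, SE 0.26, FDR = 0.00226). Cldn3, a claudin of the blood-testis barrier, was called lower, from 1.26 to 1.56 RPKM in controls to 0.771 to 1.01 RPKM in mutants (log2 fold change −0.78, SE 0.27, FDR = 0.0436), a call lost with the replicate block (FDR = 0.058) and on leaving out any 1 of the 6 libraries.

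In Thy1+ cells 0 of these 36 genes were called, and with the replicate block 16 were called higher and 2 lower, beside 3.2% and 4.92% of all genes in that fit. The largest blocked increases were those of Ptgds, prostaglandin D synthase (1.57, SE 0.46, FDR = 0.0178), Hsd17b1 (1.21, SE 0.34, FDR = 0.0142) and Rhox8, a reproductive homeobox gene (0.94, SE 0.11, FDR = 1.44e-05). Without the block their FDRs were 0.297, 0.438 and 0.663. Ptgds was scarce, at 0.370 to 0.556 RPKM in Thy1+ controls and 0.966 to 2.46 RPKM in Thy1+ mutants. Cldn3 (−1.17, SE 0.41, FDR = 0.0407) and Fst, which encodes the activin antagonist follistatin (−0.58, SE 0.11, FDR = 0.00068), were the 2 called lower. None of the 36 passed the interaction test without the block. The replicate numbers did not pair the libraries across all 4 groups, and with the block 5 passed, all lower, beside 446 of 18002 genes (2.48%).

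Between control populations 8 of the 36 were called higher in Thy1+ cells and 3 lower, beside 20.7% and 7.08% of all genes tested. With the replicate block 10 were called higher and 2 lower, beside 21.8% and 8.38% of all genes. The largest were Inhba, the beta A subunit of activin and inhibin (2.97, SE 0.26, FDR = 7.28e-05), Fst (2.75, SE 0.18, FDR = 2.15e-05) and Vim, the intermediate filament vimentin that stromal cells also use (2.30, SE 0.22, FDR = 0.000105). Ptgds (−1.19, SE 0.39, FDR = 0.0433), Aldh1a1, a retinaldehyde dehydrogenase (−0.85, SE 0.13, FDR = 0.00151), and Gdnf, the ligand that sustains spermatogonial stem cells (−0.69, SE 0.21, FDR = 0.0291), were lower in Thy1+ controls, and Ptgds lost its call with the replicate block (FDR = 0.0522). It was scarce in both control groups, at 0.370 to 0.556 RPKM in Thy1+ and 0.853 to 1.37 RPKM in c-Kit+ cells. In the mutants, where 15.3% of all genes were called higher and 5.03% lower, 6 of the 36 were called higher in Thy1+ cells, led by Inhba (2.45, SE 0.18), Bmp4 (1.99, SE 0.20) and Vim (1.72, SE 0.13), and 3 lower, namely Aldh1a1 (−1.40, SE 0.17), Hsd17b1 (−1.11, SE 0.28) and Gdnf (−1.10, SE 0.28), all with an FDR of at most 0.02. The counts called lower changed when 1 library was left out. Without Thy1+ control replicate 1, 11 of the 36 were lower, beside 5.51% of all genes. Without Thy1+ control replicate 3 or c-Kit+ control replicate 1, 1 was lower, beside 1107 of 17648 and 1178 of 17723 genes. In the mutants 20 of the 36 were lower without Thy1+ mutant replicate 1, beside 5.57% of all genes. Without c-Kit+ mutant replicate 1, 2 or 3, 1 was lower, beside 431 of 17786, 359 of 17576 and 349 of 17766 genes. The fit with all mutant libraries called 872 of 17346 genes lower, so calls fell over all genes in these refits too.

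Markers of other somatic testis cells moved with the members in some comparisons and not in others. In c-Kit+ cells the mutants also had more of the Leydig list (4 of 6 called higher, summed level 343 to 648 RPKM in controls and 639 to 1071 RPKM in mutants), the stromal list (6 of 6, 373 to 469 RPKM and 679.9 to 894 RPKM), the endothelial list (5 of 5, 12.4 to 17.4 RPKM and 26.2 to 41.0 RPKM), the peritubular myoid list (3 of 5, 19.6 to 28.4 RPKM and 34.3 to 42.7 RPKM) and the mast cell list (4 of 5, 21.8 to 36.1 RPKM and 48.3 to 69.4 RPKM). For the macrophage list 0 of 6 were called, with 5.69 to 14.2 RPKM in controls and 12.1 to 19.9 RPKM in mutants, while with the replicate block 4 of 6 were. The block also raised the Leydig list to 6 of 6 and the mast cell list to 5 of 5. Over all genes tested in c-Kit+ cells, 14.8% were called higher, and with the block 2705 of 17134 were. The 3 genes that respond to hedgehog ligands, Ptch1, Hhip and Gli1, were called higher, with 19.1 to 29.7 RPKM in controls and 41.6 to 51.7 RPKM in mutants. For the 6 germ cell markers 0 were called, 6 of 6 had a negative log2 fold change with a median of −0.28, and their summed level was 1309 to 1501 RPKM in controls and 1141 to 1287 RPKM in mutants. Dazl (−0.45, FDR = 0.00173), Sall4 (−0.45, FDR = 0.00136), Mael (−0.29, FDR = 0.00629) and Tdrd9 (−0.27, FDR = 0.0104) missed a call only by the minimum on the fold change. Ddx4 and Uchl1 had FDRs of 0.0663 and 0.0756. The part of cell composition in the members' rise was not tested.

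In Thy1+ cells the stromal, Leydig and germ cell lists were not highest in replicate 1, as the members were, while some other somatic lists were. The members' summed level was 1494, 326 and 364 RPKM in Thy1+ control replicates 1, 2 and 3, while the stromal list had 3029, 2406 and 3163 RPKM, the Leydig list 134, 125 and 221 RPKM and the germ cell list 793, 1174 and 853 RPKM. In the Thy1+ mutants the members had 2002, 649 and 699 RPKM, the stromal list 3638, 2739 and 4214 RPKM, the Leydig list 153, 172 and 267 RPKM and the germ cell list 634, 1021 and 655 RPKM. The peritubular myoid list was the highest in replicate 1 in both, at 199 and 227 RPKM against at most 113 and 174 RPKM in the others. In the controls the macrophage (44.8, 39.4 and 23.5 RPKM) and mast cell (8.01, 6.87 and 6.97 RPKM) lists were also highest in replicate 1. In the mutants these lists were highest in replicate 3, as were the endothelial and hedgehog response lists in both genotypes. The macrophage list held 23.5 to 44.8 RPKM in Thy1+ controls and 39.1 to 52.3 RPKM in Thy1+ mutants, the endothelial list 45.6 to 63.5 RPKM and 60.1 to 90.7 RPKM, the mast cell list 6.87 to 8.01 RPKM and 10.4 to 12.8 RPKM, and the hedgehog response genes 86.9 to 126 RPKM and 114 to 173 RPKM. The erythroid list stayed between 0.992 and 4.90 RPKM in all libraries, with Hbb-bs at 0 in 7 of 12, and no other listed marker that is in the table was at 0 in any library. None of these genes was called between Thy1+ mutants and controls, where 0 of 17416 genes were called. With the replicate block 1 gene each of the hedgehog response, stromal, macrophage, mast cell and erythroid lists was called higher and 1 germ cell marker lower. Of all genes in that fit 3.2% were called higher and 4.92% lower.

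Between control populations the lists for stromal cells (6 of 6), macrophages (6 of 6), peritubular myoid cells (4 of 5), endothelial cells (3 of 5) and hedgehog response (3 of 3) were called higher in Thy1+ cells, and the Leydig (5 of 6), mast cell (4 of 5) and germ cell (3 of 6) lists lower, with median log2 fold changes from −2.95 to 2.91. Of all genes in that fit 20.7% were called higher and 7.08% lower. The members had a median of 0.08 in the same fit with none called, of −0.21 with the replicate block and of −1.06 without Thy1+ control replicate 1. In the mutants the same 5 lists had 6 of 6, 6 of 6, 4 of 5, 2 of 5 and 3 of 3 genes called higher in Thy1+ cells, and the Leydig (6 of 6), mast cell (5 of 5) and germ cell (2 of 6) lists had genes called lower. The shares of all genes there were 15.3% higher and 5.03% lower. Mast cells carry c-Kit themselves. The genotype and population comparisons use the same libraries in different pairs, so their values are not independent.

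**Figure D4:**
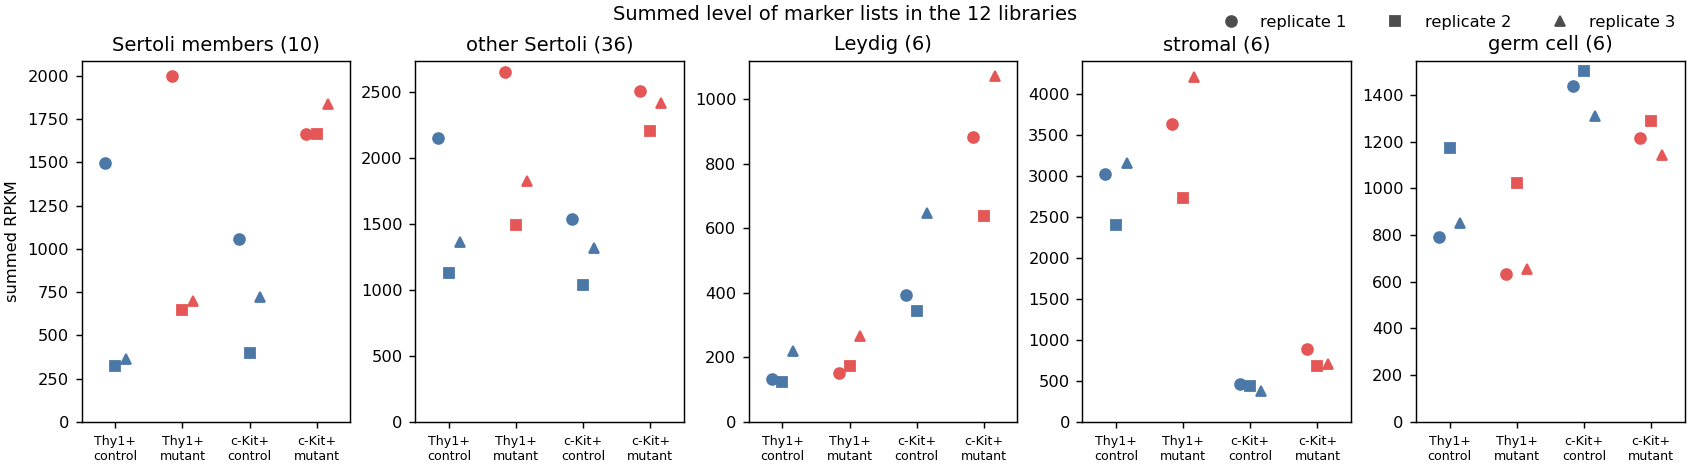
Summed RPKM (vertical axis, from 0) of the 10 Sertoli cell genes, 36 other Sertoli cell genes and the Leydig, stromal and germ cell lists in the 12 libraries, by group and replicate number. Within each Thy1+ group both Sertoli cell lists are highest in replicate 1, while the stromal list is highest in Thy1+ libraries and the Leydig list in c-Kit+ mutants.

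The genes whose pattern was most like that of the members were ranked by Pearson's r, over the 12 libraries, with the mean of the members' log2 CPM scaled to unit SD, among the 13666 genes whose log2 CPM averaged 1 or more. The closest, all with r of 0.99 or above, included Enpp2, Adgrg1, Rhox8, Kctd14, Exoc3l2, Kazald1, AU015836, Tmem114 and Gpr37. Of these only Rhox8 was on the list of other Sertoli cell genes. Enpp2, which encodes the secreted enzyme autotaxin, had 3.74 to 15.2 RPKM in Thy1+ controls, 6.20 to 19.1 RPKM in Thy1+ mutants, 4.15 to 9.41 RPKM in c-Kit+ controls and 15.4 to 17.2 RPKM in c-Kit+ mutants. Rhox8 had 14.5 to 85.1 RPKM, 36.7 to 121.9 RPKM, 20.1 to 58.3 RPKM and 95.3 to 109 RPKM in the same groups. In all, 405 of the 13666 genes (2.96%) had r of at least 0.9, and 13 of the 32 other Sertoli cell genes ranked were among them. The 32 had a median r of 0.83, and 4 had r below 0. Among those named above as higher in Thy1+ than in c-Kit+ cells, r was −0.072 for Inhba, −0.16 for Fst, 0.11 for Vim and 0.072 for Bmp4, so these did not follow the members. Among those named as lower, r was 0.83 for Gdnf, 0.60 for Aldh1a1 and 0.88 for Hsd17b1.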

How the data were processed

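The 12 RNA-seq libraries were compared by genotype within each population, by population within each genotype and by the interaction of both, the groups coming from the sample labels. Per the labels and methods, poly(A) RNA was made into directional libraries, and the authors trimmed reads with Trimmomatic 0.39, aligned them to mm10 with HISAT2 2.1.0 and counted them with featureCounts. The deposited values are raw whole-number counts per gene over RefSeq exons. The header shows the paired-end option without the one that counts a pair as 1, and no strand option, so both ends of a pair may be counted and reads of an antisense gene could be included. No counted exon of the 10 genes overlapped one of another gene in the table. Of 27179 genes, 25275 were given symbols by gene ID, and the 1904 others, which stayed in the tests, took 0.511% to 0.776% of counts. No count column was left unassigned.

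Counts were filtered with filterByExpr, scaled by TMM and tested with edgeR 4.0.16 (R 4.3.3), quasi-likelihood F test, Benjamini-Hochberg adjustment over all genes tested. The standard error is the log2 fold change divided by the root of F. Calls need an FDR under 0.05 and a log2 fold change beyond ±0.5, with no minimum for the interaction. The gene tests were checked on simulated counts. The members and gene lists were chosen with earlier results of these data known. The text names all 10 members, up to 3 other Sertoli cell genes called with the largest rise and fall in each comparison, and the 10 most similar genes, of which 1 is not reported here. Alternatives were edgeR's exact test, DESeq2 1.42.0, other scaling and filters, all 12 libraries in 1 fit, a replicate block and leaving out each library, plus, chosen after seeing the data, leaving out replicate 1 of every group. The methods name 3 pups per analysis and the study 3 per genotype, without saying that each library was 1 animal. If it was not, p-values measure only the spread between these libraries. The deposited exon length gave RPKM.

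Same-numbered libraries were taken as paired where each of 3 correlations of deviations from group means exceeded 0.1. They were 0.49, 0.48 and 0.27 for genotype in Thy1+ cells, 0.101, 0.101 and 0.125 in c-Kit+ cells and 0.30, 0.24 and 0.13 between control populations. Between mutant populations they were 0.021, 0.20 and 0.062, so these were not paired. The pairing is inferred from the same counts that the blocked fits use, since the labels give only the numbers. The deviations within a group cancel out, so the 3 correlations are not independent, and those in c-Kit+ cells barely exceeded 0.1. Of the 42 samples, the 30 ChIP-seq samples were not analysed here.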

Additional observations from a re-analysis of the deposited data

How the results depend on the processing

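In c-Kit+ cells all 150 log2 fold changes, 1 for each member in each refit, stayed positive, 139 of them on the same side of the threshold. When 1 library was left out, 9 to 10 members were called, beside 2087 to 2735 genes called higher of 17424 to 17534 tested. With all 12 libraries in 1 fit 1 member and 16 of the other Sertoli cell genes were called, beside 2374 of 18002 genes called higher. In Thy1+ cells the number called higher went from 0 to 9 with the replicate block and stayed at 0 under the other alternatives, and 7 of 150 values changed sign. Without 1 library, Wt1 ranged from −0.20 to 1.30, Clu from −0.16 to 1.78, Cldn11 from −0.42 to 1.71, Fshr from −0.61 to 2.01 and Aard from −0.14 to 1.73, while Sox9 (0.13 to 1.68), Gata4 (0.34 to 0.82), Amh (0.29 to 2.16), Dhh (0.10 to 2.09) and Inha (0.032 to 1.61) stayed positive.

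Between control populations 42 of 150 values changed sign. Without 1 library, 0 to 1 members were called higher and 0 to 7 lower, and the log2 fold changes ranged from −0.65 to 0.68 for Sox9, −1.08 to 0.69 for Amh, −0.89 to 0.25 for Wt1, −1.27 to 0.30 for Clu, −1.14 to 0.50 for Cldn11, −1.70 to 0.47 for Fshr, −1.36 to 0.32 for Dhh, −0.99 to 0.31 for Inha and −1.03 to 0.43 for Aard. Inha had −0.048 with DESeq2, −0.047 with its size factors in edgeR, −0.096 with library size only, −0.028 with no filter, −0.050 with at least 1 CPM in 3 libraries and −0.030 with all 12 libraries in 1 fit. With library size only Fshr had −0.020 and Aard −0.024. With the replicate block 1 member was called higher, and Amh had −0.084, Cldn11 −0.21, Fshr −0.46, Inha −0.22 and Aard −0.18. Without replicate 1 of both populations 6 members were called lower, with Sox9 at −0.31, Amh at −0.47, Cldn11 at −0.82, Fshr at −1.48, Inha at −0.65 and Aard at −0.64. The cause was not tested.

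Between mutant populations 0 to 9 members were called lower without 1 library, and Gata4 ranged from −0.23 to 0.18. Without replicate 1 of both mutant populations 9 members were called lower, beside 762 of 17514 genes. Library size only moved the median of all genes between mutant populations from −0.031 to −0.12, and the members' median from −0.60 to −0.69. With the replicate block, whose numbers do not pair these libraries, 0 were called, while 9 other Sertoli cell genes were called lower against 3 without it. Of all 17346 genes, 1186 were called lower with the block and 872 without it. For the interaction, leaving out 1 library gave −1.29 to 0.27 for Sox9, −1.40 to 0.49 for Amh, −1.32 to 0.19 for Wt1, −1.39 to 0.56 for Clu, −1.61 to 0.53 for Cldn11, −1.74 to 0.91 for Fshr, −1.33 to 0.67 for Dhh, −1.28 to 0.31 for Inha and −1.38 to 0.51 for Aard, the positive values all without Thy1+ control replicate 1. The exact test could not be run for the interaction. The replicate block changed the call of no other member. All 40 group means in RPKM moved by less than 1 SD with library size only.

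With 3 libraries a group, the biological coefficient of variation was 20.9% in Thy1+ cells and 12.1% in c-Kit+ cells, and 8.30% and 9.83% with the replicate block. Fewer reads were not tried. Fshr was the least abundant member, with as few as 1.14 CPM in 1 library.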
